A study of Homo sapiens with 12 samples.

Results

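The genes described here are CTBP1, its paralogue CTBP2, ANKRD11, and 6 genes of the histone deacetylase corepressor complexes with which their proteins are known to work: RCOR1, KDM1A, HDAC1, HDAC2, NCOR1 and SIN3A. They are 9 of the 16557 genes named on the array and were measured by 20 of its 41000 gene probes. A probe was assigned to a gene when its RefSeq transcript maps to that symbol, with A_32_P118655 added for CTBP1, and every probe is given separately. CTBP1 and ANKRD11 were chosen by the size of the differences that A_32_P118655 and A_24_P324405 showed between these same conditions. Their values are therefore a description, without a test, and the other 7 genes carry the tests. Those 7 were also chosen with earlier results of these data known, which their p-values do not take into account.

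Transcript levels come from 12 one-colour Agilent 44 k arrays hybridised with RNA of H358/Tet-On/SRSF2 cells. This is a single inducible clone of H358, a human lung carcinoma line. It carries, under a Tet-responsive promoter, a copy of SRSF2, a serine/arginine-rich splicing factor. In the 6 arrays with the label of SRSF2 over-expression, written below as SRSF2-labelled arrays, the cells had received 1 µg/mL doxycycline for 24 hours. In the 6 arrays labelled control, at the same time point, the treatment is given as none. The protocol given for both conditions is that of the inducible clone, and it does not say whether control cells received doxycycline. Per the study's description, the 6 arrays of a condition are 2 from each of 3 labelings. The comparison addresses which transcripts differ in abundance between cells labelled as over-expressing the splicing factor and control cells. As the control treatment is given as none, effects of the drug and of the induction cannot be told apart here.

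C-terminal binding proteins are corepressors that bind short motifs in DNA-bound repressors, sense the redox state of the cell through NADH, and recruit enzymes that remove activating marks from histones. Among these enzymes are the demethylase KDM1A (LSD1), held by the CoREST scaffold RCOR1, and the deacetylases HDAC1 and HDAC2, which are also shared with the SIN3A scaffold. NCOR1 carries deacetylase activity to nuclear receptors, and ANKRD11 is an ankyrin repeat protein that binds steroid receptor coactivators and recruits deacetylases to them. In epithelial tumours, C-terminal binding proteins are known for repressing the epithelial cadherin gene together with zinc finger repressors.

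The single probe of SRSF2 itself (A_23_P77776) was lower, not higher, on the SRSF2-labelled arrays. Log2 signals are given here relative to the 75th percentile of each array. That of SRSF2 ran from 3.74 to 4.03 in the control and from 2.29 to 2.56 on the SRSF2-labelled arrays, a log2 fold change of -1.46 (SE 0.06, limma adjusted p = 1.68e-09). Whether this probe can hybridise to the transcript of the transgene is not given in the sources used here. The induction was also examined in the study by RT-PCR and western blot, which were not analysed here. All directions below are those of the labels. All 9 probes of the epithelial genes EPCAM, CDH1, KRT7, KRT8, KRT18 and KRT19 were well above background on the 12 arrays, although KRT7 fell by 1.32 on the log2 scale (SE 0.06, limma adjusted p = 1.66e-09). Of the markers of other cell types, PTPRC was well above background on 0 arrays and PECAM1 on all 12, and ALB was so on 0 control arrays and 5 SRSF2-labelled arrays. ALB ranged from -7.04 to -5.71 and from -4.07 to -3.54, and PECAM1 from -3.0 to -2.75 and from -3.53 to -3.18. No probe was matched to COL1A1. The part of these differences in the results below was not tested. In RNA of whole cultures, fewer cells with a transcript and less transcript per cell cannot be told apart.

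Of the 20 probes, 19 passed the filter on dim probes, which asked for a signal well above background on at least 5 of 6 arrays of a condition. The exception was A_24_P87257 of RCOR1. Deregulated probes were those with a difference of 2-fold or more and an adjusted p no greater than 0.05. By this rule 6 of the 19 were called, 2 higher and 4 lower on the SRSF2-labelled arrays, beside 7.00% of the 24331 probes tested on the array (3.68% higher and 3.31% lower). Of these 6, 5 belong to CTBP1 and ANKRD11, so nothing is read from the count. Over the other 7 genes, 1 of 11 tested probes was called, the dim RCOR1 probe A_23_P205247, which was kept only through the condition in which it was high. With the limit on the adjusted p alone, 8 of these 11 passed, 3 higher and 5 lower, where 57.7% of all tested probes did (29.7% higher and 28.0% lower). The arrays of the conditions did not overlap for 7 of the 11 (2 higher, 5 lower), beside 40.2% of all tested probes (21.2% higher and 18.9% lower). Without A_23_P205247 these counts were 0, 7 and 6 of 10. The median log2 fold change of the 11 was -0.25, and that of all tested probes was 0.01. Over all probes, 896 were called higher and 806 lower, a split that became 1601 and 430 under a scaling on 7 spike-in control probes, because that scaling moved the median change of all probes by 0.21 on the log2 scale. Small changes of a single gene are to be read relative to that shift.

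CTBP1 was measured by 4 probes. For A_32_P118655, annotated with a record outside RefSeq while the other 3 share 1 RefSeq transcript, the control arrays had a log2 signal of -5.27 at the lowest, -4.88 in the median and -4.82 at the highest. On the SRSF2-labelled arrays it was 0.15, 0.21 and 0.26. The conditions lay far apart, with all 6 arrays of the second condition within a narrow band.

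The background-subtracted intensity of A_32_P118655 had a median of 31.1 in the control, of the order of the local background of 24.0 to 28.0, and of 1210 on the other arrays. It was well above background on 2 of the 6 control arrays and on all 6 others. The fitted log2 fold change was 5.18 (SE 0.08), or 36.2-fold. The difference was 28.6-fold when each control array was held at or above the lowest signal that counts as well above background. This probe was kept only through the condition in which it was high, and under a stricter filter asking for 9 of 12 arrays it was not tested. The size depended on the background correction, with a log2 fold change of 3.45 without background subtraction and 2.21 with normexp, a model-based correction. It was 3.16 with normexp on a local background capped at 2 times the median of the array.

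The other 3 CTBP1 probes differed little between the conditions. A_24_P208992 ranged from 0.30 to 0.64 (median 0.47) in the control and from 0.32 to 0.97 (median 0.61) on the others, with a log2 fold change of 0.12 (SE 0.10). A_23_P41292 ranged from 1.94 to 2.12 (median 2.02) and from 1.83 to 2.11 (median 2.06), with -0.02 (SE 0.06). A_23_P41286 ranged from 3.80 to 4.01 (median 3.92) and from 3.68 to 4.07 (median 3.94), also with -0.02 (SE 0.07). For all 3 the arrays of the conditions overlapped, and the sign of the latter pair turned with the scaling, to 0.19 for both with the spike-in probes. The log2 fold change of A_32_P118655 exceeded theirs by 5.06 to 5.20.

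**Figure D1:**
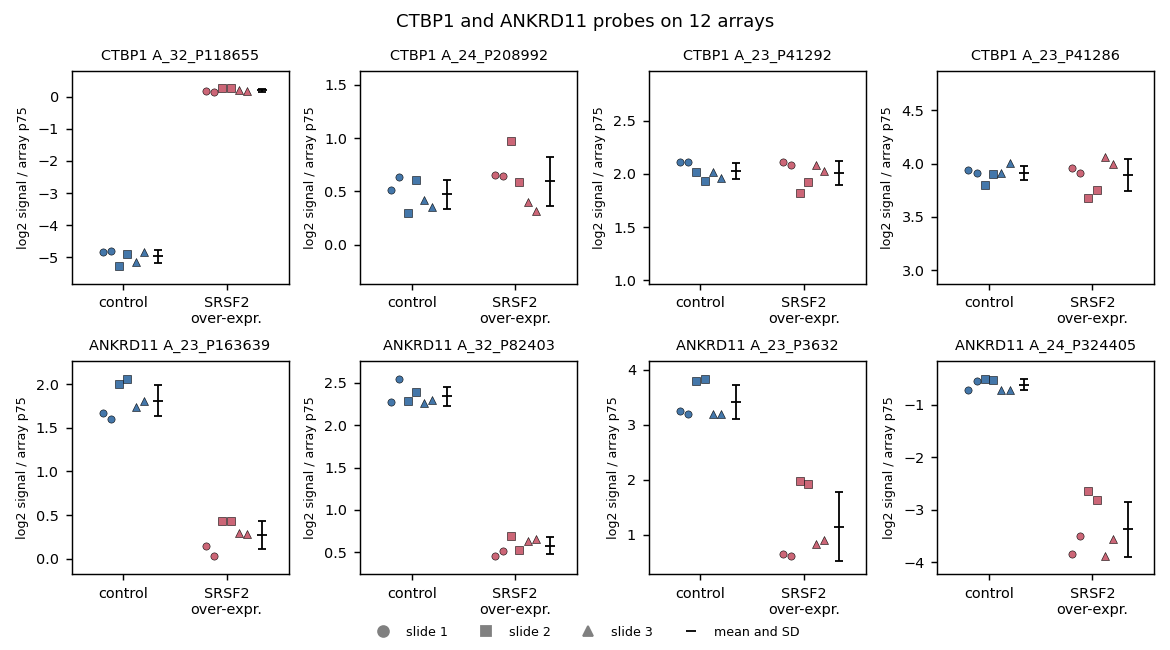
Log2 signal relative to the array's 75th percentile for the 4 CTBP1 and 4 ANKRD11 probes, 1 point per array, with the mean and SD of 6 arrays per condition and the slide given by the symbol; the vertical range differs between panels. A_32_P118655 has a median of -4.88 in the control and 0.21 on the other arrays, the other 3 CTBP1 probes overlap between conditions, and all 4 ANKRD11 probes are lower on every SRSF2-labelled array.

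CTBP2, which shares its corepressor function with CTBP1, fell by less than 2-fold on both of its probes, which are annotated with different RefSeq transcripts. A_23_P63897 ranged from 4.22 to 4.35 (median 4.31) on the control arrays and from 3.57 to 3.76 (median 3.64) on the SRSF2-labelled arrays. The log2 fold change was -0.65 (95% confidence interval -0.75 to -0.55), with a limma adjusted p of 1.2e-07. A_24_P103922 ranged from 0.82 to 1.07 (median 0.84) and from 0.21 to 0.65 (median 0.30), a change of -0.50 (-0.68 to -0.32, limma adjusted p = 0.00021). Every control array lay above every other array for both probes. With spike-in scaling the changes were -0.44 and -0.29 and neither passed (limma adjusted p = 0.132 and 0.337). With normexp they were -0.50 and -0.34, and again neither passed (limma adjusted p = 0.132 and 0.065). Both passed with normexp on the capped background (limma adjusted p = 2.17e-07 and 0.000475). The values of all alternatives ranged from 1.06e-07 to 0.132 and from 1.58e-05 to 0.337.

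ANKRD11 was lower on the SRSF2-labelled arrays for each of its 4 probes, all annotated with 1 RefSeq transcript. A_24_P324405, the one named in the choice of the gene, had a lowest, median and highest log2 signal of -0.73, -0.63 and -0.51 on the control arrays and of -3.89, -3.53 and -2.64 on the others. The log2 fold change was -2.75 (SE 0.20), a 6.74-fold difference, and the probe stayed well above background on all 12 arrays, its intensity being 637 in the median control array and 92.9 in the median of the others.

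The remaining ANKRD11 probes were well above background on all arrays. A_23_P3632 went from 3.20, 3.22 and 3.84 (lowest, median and highest) to 0.61, 0.87 and 1.97, a log2 fold change of -2.26 (SE 0.26). A_32_P82403 went from 2.26, 2.29 and 2.55 to 0.45, 0.58 and 0.69, with -1.76 (SE 0.06). A_23_P163639 went from 1.61, 1.77 and 2.06 to 0.03, 0.29 and 0.43, with -1.54 (SE 0.10). None of the 4 probes overlapped between conditions, and the size of the difference ranged from 2.92-fold to 6.74-fold. Between probes the log2 fold changes differed by up to 1.21 (A_23_P163639 against A_24_P324405, SE 0.19).

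The slides did not give the same size for all of them. On slide 2 the difference of the means was -2.21 for A_24_P324405, against -3.04 and -3.0 on slides 1 and 3. For A_23_P3632 it was -1.86 on slide 2, against -2.59 and -2.33. In both cases the arrays of slide 2 were the highest in the control as well as among the SRSF2-labelled arrays. For A_32_P82403 and A_23_P163639 the 3 slides lay within -1.93 to -1.64 and -1.60 to -1.48. Under all alternatives the 4 probes kept negative log2 fold changes, from -3.02 to -1.25.

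RCOR1, the CoREST scaffold, fell on the only one of its 3 probes that was well above background on all arrays. For A_24_P330366, the log2 signal ranged from 0.44 to 0.63 (median 0.54) in the control and from -0.29 to 0.02 (median -0.10) on the SRSF2-labelled arrays. It fell by 0.66 on the log2 scale (95% confidence interval -0.80 to -0.53, limma adjusted p = 1.6e-06), without overlap between arrays. With spike-in scaling the change was -0.46 and no longer passed (limma adjusted p = 0.131; over all alternatives, 8.5e-07 to 0.131).

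The other RCOR1 probes are dim. A_23_P205247 cleared the background on 2 arrays of the control and 5 SRSF2-labelled arrays, and so passed the filter only through the condition in which it was high. It ranged from -5.55 to -4.51 (median -4.95) and from -4.10 to -2.76 (median -3.85), with a median intensity of 33.4 and 71.1 over a local background of 23.0 to 38.0. The fitted log2 fold change was 1.22 (SE 0.23). The difference was 1.76-fold when each control array was held at or above the lowest signal that counts as well above background. The log2 fold change was 0.45 with normexp on a capped local background and -0.02 with normexp as planned, so no direction is taken from this probe. A_24_P87257, which was not tested, cleared the background on 2 arrays of the control and 3 others. It ranged from -5.50 to -4.32 and from -4.82 to -3.77, with overlap.

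KDM1A, the flavin-dependent histone demethylase of the CoREST complex, rose. Its single probe A_24_P74981 ranged from -0.44 to -0.12 (median -0.33) in the control and from 0.01 to 0.62 (median 0.46) on the SRSF2-labelled arrays, with every array of the second condition above the first. The log2 fold change was 0.67 (95% confidence interval 0.43 to 0.91), 1.59-fold (limma adjusted p = 0.00019). The arrays of slide 2 were the lowest of the second condition, and the difference there was 0.45, against 0.74 and 0.81 on slides 1 and 3. It passed under each alternative run, with limma adjusted p from 2.69e-06 to 0.0227.

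The class I deacetylases HDAC1 and HDAC2 went in opposite directions by small amounts. HDAC1 (A_23_P114656) ranged from 3.61 to 3.76 (median 3.67) in the control and from 3.32 to 3.47 (median 3.37) on the SRSF2-labelled arrays, without overlap. It fell by 0.30 on the log2 scale (95% confidence interval -0.40 to -0.20, limma adjusted p = 0.00011), that is 1.23-fold. The probe is spotted 10 times on each array, and the SD over its spots, 0.05 in the median array, was of the size of the SD over arrays, 0.05 in the control and 0.07 in the other condition. With spike-in scaling the HDAC1 change was -0.09 (limma adjusted p = 0.787; over all alternatives, 1.02e-05 to 0.787). With normexp it was -0.16 and did not pass (limma adjusted p = 0.682), but it passed on the capped background (limma adjusted p = 0.000145).

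HDAC2 (A_23_P122304) ranged from 3.23 to 3.42 (median 3.30) and from 3.36 to 3.65 (median 3.56), so that the arrays overlapped. It rose by 0.22 on the log2 scale (0.08 to 0.36, limma adjusted p = 0.012). The difference was 0.09 on slide 2 and 0.25 and 0.30 on slides 1 and 3. HDAC2 no longer passed with normexp (limma adjusted p = 0.318), though it did on the capped background (limma adjusted p = 0.0193). Nor did it pass when the arrays of slide 3 were left out (limma adjusted p = 0.14). The same held when each pair of arrays sharing slide and condition was averaged (0.142), within a range of 0.00117 to 0.318 over all alternatives. With spike-in scaling its change was larger, 0.42, yet it did not pass (limma adjusted p = 0.145). Under that scaling, then, a pass was lost here without a smaller change.

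NCOR1, the nuclear receptor corepressor, did not pass on any of its 3 probes. A_24_P204214 ranged from 0.04 to 0.58 (median 0.50) and from 0.35 to 0.62 (median 0.52), a log2 fold change of 0.05 (95% confidence interval -0.15 to 0.24, limma adjusted p = 0.697). A_24_P237661 ranged from -2.58 to -2.21 (median -2.34) and from -3.11 to -2.38 (median -2.61), with -0.25 (-0.50 to -0.01, limma adjusted p = 0.069). A_23_P141651 ranged from -1.79 to -1.37 (median -1.61) and from -1.57 to -1.25 (median -1.43), with 0.16 (-0.01 to 0.34, limma adjusted p = 0.101). All 3 overlapped between conditions, and the intervals allow changes of up to 0.50 on the log2 scale.

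With the replicate block the NCOR1 probes A_24_P237661 (limma adjusted p = 0.0171) and A_23_P141651 (0.0125) passed the limit on the adjusted p alone. Their changes stayed under 2-fold, so they were not called. With slide as a block these were 0.00945 and 0.00413, the lowest of their alternatives, of which the highest were 0.905 and 0.766. Without a block, A_24_P237661 also passed with median scaling (limma adjusted p = 0.0492) and with normexp on the capped background (0.0365). It did so too without background subtraction (0.0396) and with slide 2 left out (0.0264), but not in the remaining settings. On all 3 slides A_24_P237661 was lower and A_23_P141651 higher on the SRSF2-labelled arrays.

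SIN3A, the scaffold of the complex of that name, fell. Its probe A_23_P367676 ranged from 0.45 to 0.77 (median 0.75) in the control and from 0.22 to 0.34 (median 0.26) on the SRSF2-labelled arrays, without overlap. The log2 fold change was -0.44 (95% confidence interval -0.57 to -0.31), 1.35-fold (limma adjusted p = 3.8e-05). It was -0.23 with spike-in scaling (limma adjusted p = 0.453; over all alternatives, 2.72e-05 to 0.453). With normexp it was -0.30 and did not pass (limma adjusted p = 0.161), but it passed on the capped background (limma adjusted p = 0.000462).

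**Figure D2:**
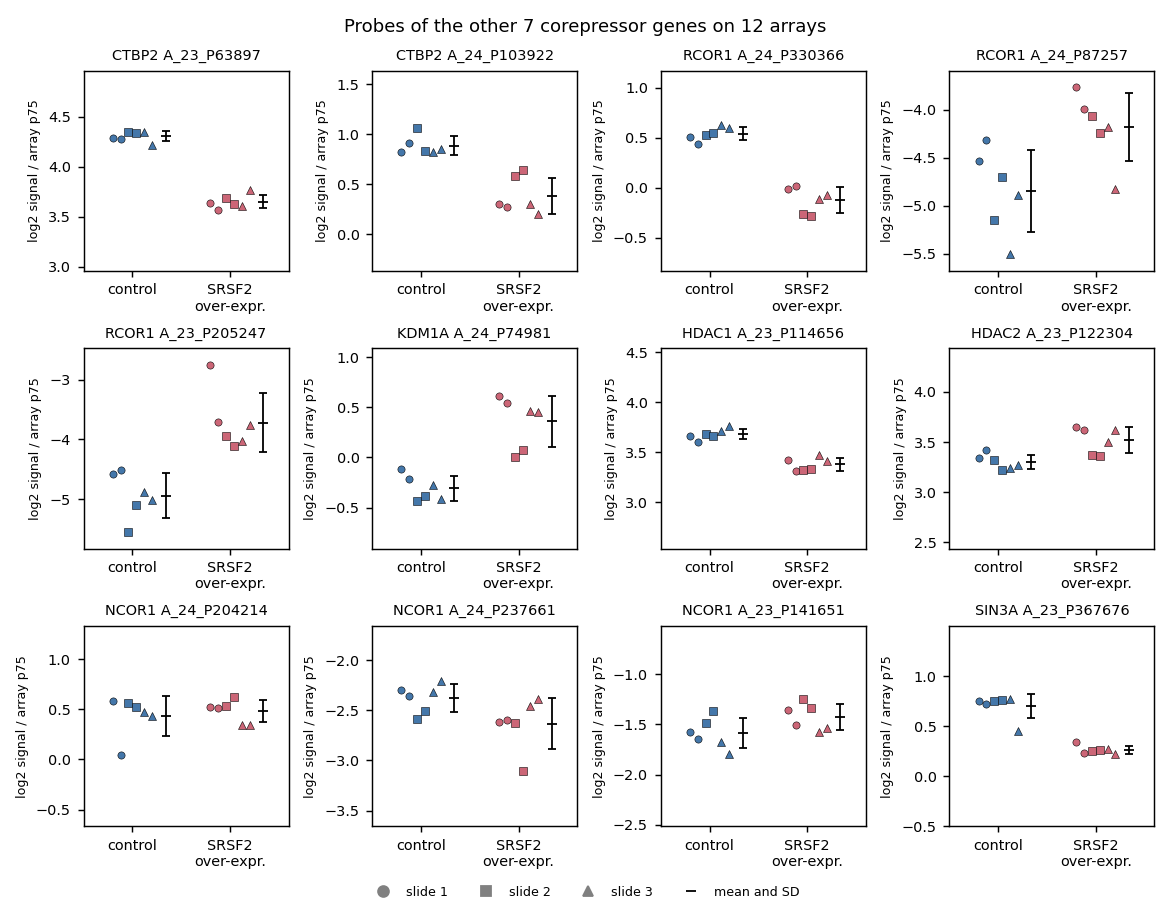
Log2 signal relative to the array's 75th percentile for the 12 probes of CTBP2, RCOR1, KDM1A, HDAC1, HDAC2, NCOR1 and SIN3A, 1 point per array, with the mean and SD of 6 arrays per condition and the slide given by the symbol; the vertical range differs between panels. CTBP2, HDAC1, SIN3A and RCOR1 A_24_P330366 are lower on every SRSF2-labelled array, KDM1A and the dim RCOR1 probe A_23_P205247 higher, and the NCOR1 probes overlap.

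**Figure D3:**
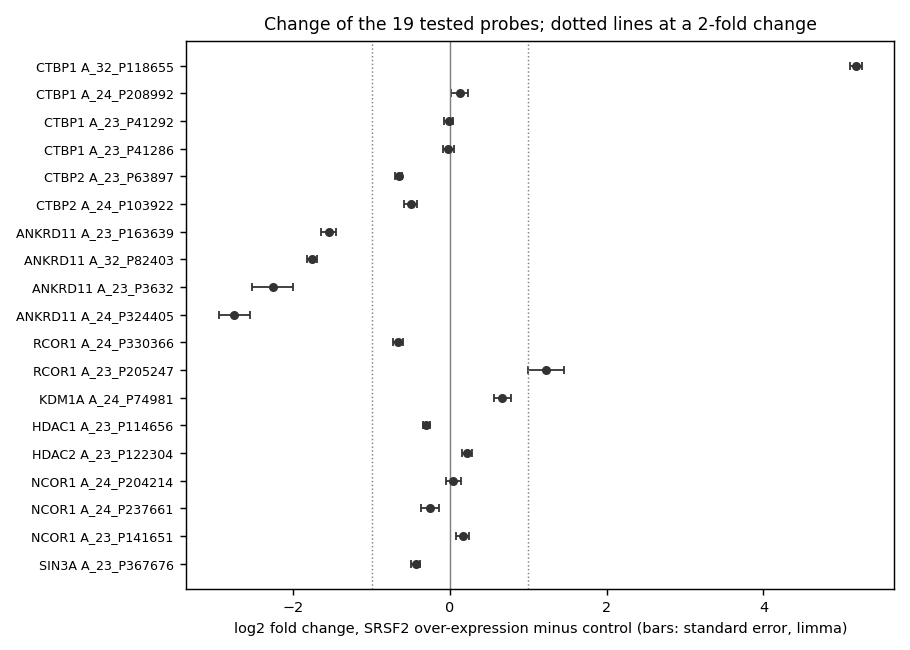
Log2 fold change of the 19 tested probes, SRSF2-labelled arrays minus control, with bars for the limma standard error and dotted lines at a 2-fold change. CTBP1 A_32_P118655 at 5.18 and the ANKRD11 probes at -1.54 to -2.75 lie outside the dotted lines, as does RCOR1 A_23_P205247 at 1.22, and the other 13 probes lie inside.

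Slide and condition were balanced, with 2 arrays of either condition on each of 3 slides, so the comparison could be repeated within a slide. Within each slide the 5 probes of CTBP2, HDAC1, SIN3A and A_24_P330366 of RCOR1 were lower on the SRSF2-labelled arrays, and those of KDM1A and HDAC2 were higher. CTBP1 A_24_P208992 went from -0.03 on slide 3 to 0.32 on slide 2, and NCOR1 A_24_P204214 from -0.11 on slide 3 to 0.21 on slide 1. For these probes the slides differed in sign, as they did for CTBP1 A_23_P41292 and A_23_P41286.

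**Figure D4:**
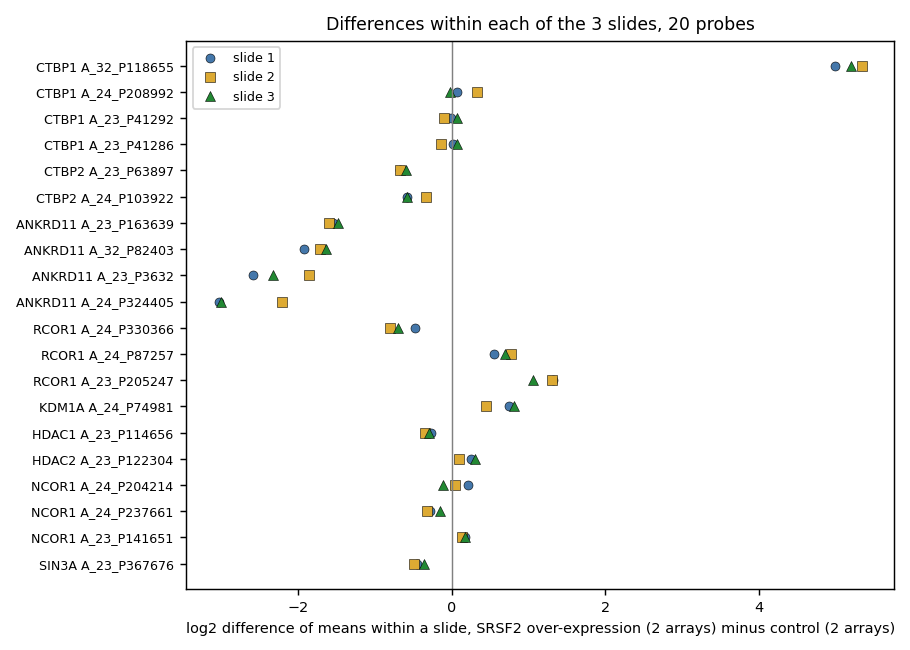
Difference of the mean log2 signal within each slide, 2 SRSF2-labelled arrays minus 2 control arrays, for the 20 probes. The points of a probe lie on 1 side of 0 for all except NCOR1 A_24_P204214 and the 3 CTBP1 probes near 0, and the ANKRD11 probes A_23_P3632 and A_24_P324405 have their smallest difference on slide 2.

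To ask whether probes of 1 gene changed alike, the log2 values of the probes were subtracted on each array, which cancels the scaling of that array, and the differences were compared by exact two-sided permutation over all arrangements of 6 arrays against 6 (smallest possible p = 0.00216). The largest of the 5 differences in CTBP2, RCOR1 and NCOR1 was -1.89 (SE 0.24) between A_24_P330366 and A_23_P205247 of RCOR1. That pair holds the dim probe kept only through its higher condition, and the difference was -1.11 with normexp on the capped background and -0.52 with normexp. It is therefore given as a description, although it was the 1 pair to pass after Benjamini-Hochberg adjustment (exact permutation p = 0.00216, adjusted 0.0108).

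The CTBP2 probes differed by -0.15 (SE 0.09, exact permutation p = 0.13, adjusted 0.162). Between A_24_P237661 and A_23_P141651 of NCOR1 the difference was -0.42 (SE 0.18), with an exact permutation p of 0.0476 and 0.119 after adjustment. These arrangements ignore the slides. With arrangements made within each slide only (smallest possible p = 0.00926), that NCOR1 pair passed (exact permutation p = 0.00926, adjusted 0.0231). So did A_24_P204214 against A_24_P237661, with a difference of 0.30 (exact permutation p = 0.0278, adjusted 0.0463), and the CTBP2 pair had an adjusted p of 0.0926 by this exact test. These adjustments count the RCOR1 pair with the dim probe among the 5 and were not repeated without it. The adjusted 0.0463 lies close to the limit, and no result is taken from it.

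The other 12 pairs, of CTBP1 and ANKRD11, were not tested. Within CTBP1 the 3 probes of 1 RefSeq transcript differed from each other by at most 0.14 (SE 0.16).

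Further genes of the corepressor complexes were taken as a list of 57, of which 53 have a named probe, with 81 of 93 probes tested. RCOR3, EHMT1 and HDAC4 were called deregulated, by 5 of the 81 probes in all (1 higher, 4 lower), beside 7.00% of all tested probes. With the limit on the adjusted p alone, 45 probes passed, 19 higher and 26 lower. The arrays of the conditions did not overlap for 33, near the 40.2% of all tested probes. The median log2 fold change of the list was -0.09, against 0.01 for all tested probes. With spike-in scaling 6 probes were called, 3 higher and 3 lower.

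By complex, the passing probes at that threshold were 11 of 20 for LSD1, CoREST and CtBP (6 higher, 5 lower), 4 of 8 for NCoR and SMRT (1 and 3), 8 of 16 for SIN3 (5 and 3), and 9 of 13 for NuRD with the shared RBBP subunits (4 and 5). They were 6 of 8 for ANKRD12 and the steroid receptor coactivators (2 and 4), 7 of 14 for the other histone deacetylases (1 and 6), and 0 of 2 for the DNA-binding partners. All of these shares are to be set beside the 57.7% of all tested probes given above. With slide as a block 50 probes of the list passed (20 higher, 30 lower), 5 more than without it, among them 1 of the 2 probes of the DNA-binding partners, while 70.1% of all tested probes passed.

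The largest rise of the list was that of RCOR3, a CoREST paralogue. Its probe A_24_P276816 ranged from -2.0 to -1.77 (median -1.87) in the control and from -0.43 to -0.29 (median -0.36) on the SRSF2-labelled arrays, a log2 fold change of 1.51 (SE 0.05, limma adjusted p = 2.43e-10). The other RCOR3 probes changed by -0.34 and 0.42 (limma adjusted p = 0.00101 and 0.0193), so this gene had probes in both directions. ANKRD12, the paralogue of ANKRD11, followed with 0.98 (SE 0.11, limma adjusted p = 6.9e-06) on A_23_P130293, a 1.97-fold rise, which was 0.47 on the log2 scale with normexp on the capped background. Its other 3 probes changed by -0.40, -0.31 and -0.20, of which the first pair passed.

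HDAC11, a class IV deacetylase, rose by 0.82 on A_23_P155360 (SE 0.09, limma adjusted p = 4.97e-06), and by 0.47 with normexp on the capped background. TBL1XR1, a subunit of the NCoR and SMRT complex, rose by 0.75 on A_23_P57989 (SE 0.06, limma adjusted p = 3.63e-07), and its other 3 probes changed by -0.13, 0.14 and 0.19 without passing. HDAC11 and the named probe of TBL1XR1 had no overlap between conditions.

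The largest falls were those of HDAC4, a class IIa deacetylase that shuttles between nucleus and cytoplasm. A_24_P8892 ranged from -1.07 to -0.94 (median -1.04) in the control and from -3.06 to -2.73 (median -2.84) on the SRSF2-labelled arrays, a log2 fold change of -1.84 (SE 0.06, limma adjusted p = 2.18e-10). A_24_P359856 and A_23_P210048 changed by -1.79 and -1.55. The fourth HDAC4 probe, A_24_P359859, changed by -0.02 (limma adjusted p = 0.903).

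EHMT1, a histone methyltransferase found in CtBP complexes, fell by 1.02 on A_23_P217120 (SE 0.06, limma adjusted p = 2.82e-08). That probe ranged from 0.36 to 0.46 in the control and from -0.75 to -0.42 on the other arrays. Its change was under 2-fold, so that EHMT1 was not called, with spike-in scaling (-0.82) and with normexp on the capped background (-0.99). The second EHMT1 probe, A_23_P20894, fell by 0.99, just short of 2-fold.

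**Figure D5:**
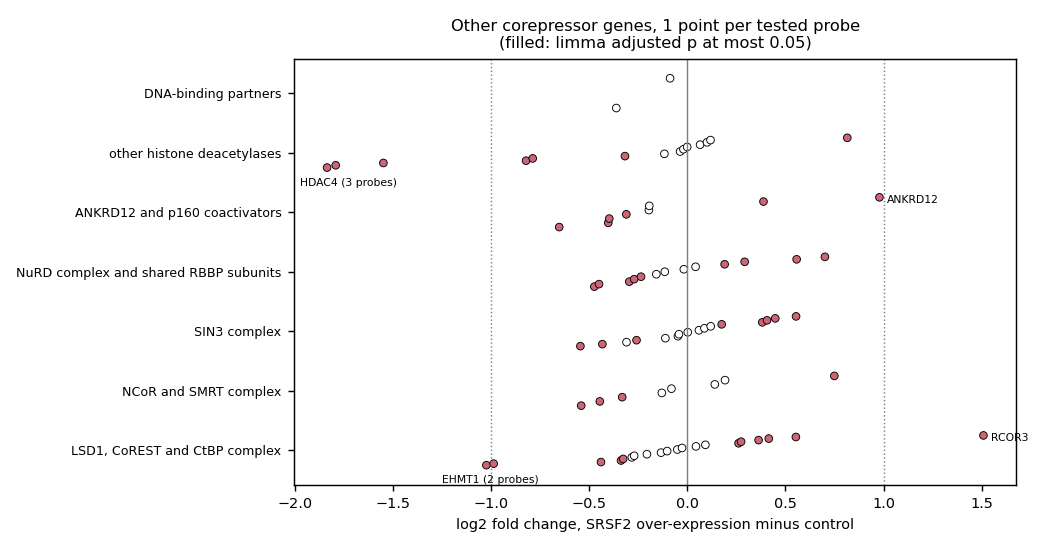
Log2 fold change of the 81 tested probes of the corepressor gene list by complex, SRSF2-labelled arrays minus control, filled where the limma adjusted p is at most 0.05, with dotted lines at a 2-fold change. RCOR3 at 1.51 and 3 HDAC4 probes at -1.55 to -1.84 stand outside the dotted lines, and EHMT1 A_23_P217120 at -1.02 lies at the line.

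The patterns most like those of A_32_P118655 and A_24_P324405 over the 12 arrays were sought by Pearson correlation among 16008 tested probes with a gene name. The arrays fall into separate clusters by condition for both probes, and 2109 and 1864 probes had a correlation above 0.9 with them, so these values rank probes and are not tested. For CTBP1 A_32_P118655 the highest were LIMS3 (0.9988), BMS1 (0.9973) and PPP1R3F (0.9972). Within conditions, the deviations of these probes from the means correlated with those of CTBP1 at 0.48, 0.15 and 0.23. For ANKRD11 A_24_P324405 the highest were MATCAP1 (0.9925), ZDHHC14 (0.992) and H2AC1 (0.9919), with 0.91, 0.87 and 0.92 within conditions. These correlations share the 12 arrays and their 3 slides. The probes were picked by correlations that already include the deviations within conditions. The control values of A_32_P118655 lie near the background, so the values within conditions are not compared between the genes.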

How the data were processed

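The authors scanned 12 arrays. For every spot, the deposited output of Feature Extraction 10.7.3.1 holds the intensity after background subtraction, the unsubtracted median intensity, the brightness of the surrounding background and quality flags. Log2 values that the authors deposited as a single table served as an alternative. After centring each probe, they differed from the log2 values computed here by a median of 0.00784 in absolute size, and their normalization is not given in the sources used here.

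Outlier spots were set to missing, spots of a probe averaged as log2 intensity, and the 75th percentile over gene probes subtracted on each array. A probe entered the test if at most 25% of the arrays lacked it and if 5 or more of the 6 arrays of a condition had it well above background. The 12 arrays were compared with limma 3.58.1 in R 4.3.3 without covariates. The study's methods exclude genes missing in over 25% of samples, then apply a t-test, Benjamini-Hochberg adjustment and a 2-fold threshold. Between 54.2% and 68.0% of spots were well above background, and the number of arrays limits the precision. The fit was run on simulated data with independent noise between arrays, which does not test how it treats arrays that share a slide.

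RefSeq accessions were matched to a GRCh38.p14 gene table, which with A_32_P118655 named 23959 of 41000 probes. Coordinates are left out because the array annotation (hg18) is of another build. Probe sequences were not used here.

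Members and lists were chosen with earlier results of these data known. Besides the member probes, the text names SRSF2, the cell type markers, the 4 largest rises and 4 largest falls of the corepressor list among probes past the limit on adjusted p, and the 3 most correlated named genes. Other probes of the genes so named were added after their values were seen.

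Both conditions carry replicate numbers 1 to 6 in the labels. Deviations from the condition means correlated between same-numbered arrays (r from 0.277 to 0.639 over 6 pairs) and between arrays of other numbers on the same slide (0.327 to 0.655), but not between slides (-0.477 to -0.0469). The pairing is thus that of the slide. Slide and scan coincide on all arrays, so the 2 cannot be told apart. The study describes 2 arrays from each of 3 labelings per condition, without saying which arrays share one or whether cultures were separate, so p-values measure the spread between arrays, which may be technical.

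The alternatives were scaling on the median, on quantiles or on spike-in probes, normexp (offset 50) or no background subtraction, the authors' table, no or a stricter filter, inclusion of outlier spots, the methods' t-test, a block for slide or for replicate number, the mean of 2 arrays, each slide left out, and a 1.5-fold threshold. Normexp with the local background of a spot capped at 2 times the median of its array, permutation within slides, and the corepressor counts with a block were added after seeing the data.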

Additional observations from a re-analysis of the deposited data

Results flagged for a closer look

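Of 40 groups of 6 arrays (20 probes in both conditions), 5 held an array whose gap to its nearest neighbour was above the 95% critical share of the range of the group, where chance gives about 1 in 20. For CTBP2 A_24_P103922, control replicate 3 was the highest at 1.07 on the log2 scale relative to the 75th percentile, with the nearest array at 0.91. For RCOR1 A_23_P205247, SRSF2 over-expression replicate 1 was the highest at -2.76, with the nearest at -3.71. For NCOR1 A_24_P204214, control replicate 2 was the lowest at 0.043 (nearest 0.44), and for NCOR1 A_24_P237661, SRSF2 over-expression replicate 4 was the lowest at -3.11 (nearest -2.63). For SIN3A A_23_P367676, control replicate 6 was the lowest at 0.45 (nearest 0.72), still above all arrays labelled SRSF2 over-expression. They were 5 different arrays, on all 3 slides.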

How the results depend on the processing

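With the replicate block, 1706 probes were called over the array, 6 among the members and 5 in the corepressor list, against 1702, 6 and 5 without it, with 6 calls gained and 2 lost over the array. Among the member probes it changed no call, and only the 2 NCOR1 probes named above crossed the limit on the adjusted p alone. In the corepressor list it lost none and added 3 probes past that limit. Over all probes 328 were called with normexp, 683 with normexp on the capped background, 798 without background subtraction and 5593 at 1.5-fold; the corepressor list gave 3 with normexp and 13 at 1.5-fold. The member count was 4 to 9. Normexp as planned was distorted on arrays with a few spots of very bright local background (up to 65529), where bright probes moved by as much as -1.10. Of the probe pairs, 0 passed with normexp (1 without it) and 2 with the capped background or no subtraction. With arrangements within slides 3 passed, among them the RCOR1 pair with the dim probe. With a slide left out 0 passed, where the smallest possible exact p is 0.0286. Signs turned for CTBP1 A_23_P41292 (0.192 with spike-in scaling, 0.108 with normexp, -0.058 to 0.026 with a slide left out) and for CTBP1 A_23_P41286 (0.025 with quantile normalization, 0.189 with spike-in scaling, 0.161 with normexp, 0.014 with the capped background, 0.008 without subtraction, -0.063 to 0.039 with a slide left out, the highest of both without slide 2). They also turned for RCOR1 A_23_P205247 (-0.024) and NCOR1 A_23_P141651 (-0.12) with normexp, and for NCOR1 A_24_P204214 (-0.038 to 0.124 with a slide left out, the lowest without slide 1). Of 321 values of single probes, 276 kept their direction and their side of the threshold or, for CTBP1 and ANKRD11, which carry no test, moved by less than 1 SD; except for the normexp values, the causes were not tested.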
